A study of Mus musculus with 6 samples.

Results

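The platelet-derived growth factor (PDGF) family was examined in fibrotic mouse kidneys. The fibrosis was driven by TGF-β1, the cytokine known for raising matrix production. Its 7 genes were the 4 ligand genes Pdgfa, Pdgfb, Pdgfc and Pdgfd, the receptor genes Pdgfra and Pdgfrb, and Pdgfrl, which encodes a receptor-like protein. They were chosen by name from the array annotation, 7 of 20416 genes, and rested on 94 of 241576 probe sets, each of which carried a single gene symbol. Total RNA from 6 kidney samples was hybridised to 6 arrays, 3 from CBAxB6-TGFbeta mice (replicates 4, 5 and 6) and 3 from B6-TGFbeta mice (replicates 1, 2 and 3). The names give the genetic backgrounds, a CBA by B6 background and the inbred B6 background. All 6 samples are labelled as having induced renal fibrosis, and littermates of like age and sex were used, per the labels. The labels also carry the word KO for the CBAxB6-TGFbeta group and WT for the B6-TGFbeta group and name no deleted gene, so a genotype behind these words cannot be told apart from the background. The sources used here do not give how TGF-β1 was raised, in which cells, or the age of the mice. No array came from mice without TGFbeta in the label, so a background difference that preceded the fibrosis cannot be told apart from an unequal response to TGF-β1. The labels do not say that the 3 samples of a group came from separate animals, and the p-values measure the spread between these samples.

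PDGF ligands act as disulfide-linked dimers on the receptor tyrosine kinases PDGFR-alpha and PDGFR-beta, which dimerise, phosphorylate themselves and recruit adaptor proteins that drive division and migration of mesenchymal cells. PDGF-A and PDGF-B are secreted in active form after cleavage inside the cell, whereas PDGF-C and PDGF-D carry a CUB domain that must be cut off outside the cell. In the kidney, PDGF-B from glomerular endothelium recruits mesangial cells through PDGFR-beta, and both receptors mark the pericytes and fibroblasts that form scar tissue. The study set the 2 backgrounds apart by their sensitivity to TGF-β1, and the comparison asks whether transcripts of the PDGF family differ between the fibrotic kidneys of the 2 backgrounds.

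Values are log2 intensities, summarised per gene over its probe sets, and the difference is CBAxB6-TGFbeta minus B6-TGFbeta. Array medians lay between 7.27 and 7.34. Correlations between arrays, across all probe sets, were 0.953 to 0.963 for CBAxB6-TGFbeta, 0.965 to 0.971 for B6-TGFbeta and 0.946 to 0.954 from one group to the other. B6-TGFbeta replicate 2, and to a lesser extent replicate 1, stood apart by RNA of neighbouring tissues. Ucp1, the uncoupling protein of brown fat, stood at 5.68 to 6.22 in the CBAxB6-TGFbeta arrays, against 5.42, 10.93 and 5.13 in B6-TGFbeta replicates 1, 2 and 3. Chgb, a chromaffin granule protein of the adrenal medulla, stood at 5.80 to 5.99 in the CBAxB6-TGFbeta arrays, against 6.32, 11.21 and 5.85 in B6-TGFbeta replicates 1, 2 and 3. Both genes were far above the other 5 arrays in B6-TGFbeta replicate 2. The mean level of 8 adrenal markers was 5.62 to 5.71 in the CBAxB6-TGFbeta arrays, and 6.58, 8.75 and 5.65 in B6-TGFbeta replicates 1, 2 and 3. Star, which encodes the cholesterol carrier of steroid-producing cells, stood at 5.86 to 6.44 in the CBAxB6-TGFbeta arrays, against 8.90, 10.74 and 6.46 in B6-TGFbeta replicates 1, 2 and 3. The difference of each PDGF family gene is therefore also given without B6-TGFbeta replicate 2. Values of single probe sets and of pairs of genes are given with all 6 arrays. Slc34a1, the sodium phosphate transporter of the proximal tubule and a defining gene of kidney, stood at 10.03 to 10.48 in the CBAxB6-TGFbeta arrays and 12.06 to 12.29 in the B6-TGFbeta arrays.

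None of the 7 genes passed the test (limma with Benjamini-Hochberg adjustment over all genes, threshold 0.05), a test that 7.65% of all genes passed, 3.08% as higher and 4.57% as lower in CBAxB6-TGFbeta kidneys. At an unadjusted p under 0.05 there were 2 of the 7, Pdgfa and Pdgfb, against 21.5% of all genes. In Pdgfa, Pdgfb and Pdgfrl every CBAxB6-TGFbeta array lay above every B6-TGFbeta array, and no gene of the family had the groups separated the other way. Groups that did not overlap were found in 26.8% of all genes and in the higher direction in 13.5%. The median difference of the 7 genes was 0.01 and that of all genes 0.02, and the median size of the difference regardless of sign was 0.11 for the 7 and 0.13 for all genes. With a median standard error of 0.12 over all genes at 3 arrays a group, the 95% confidence intervals below give the differences these arrays left possible.

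**Figure D1:**
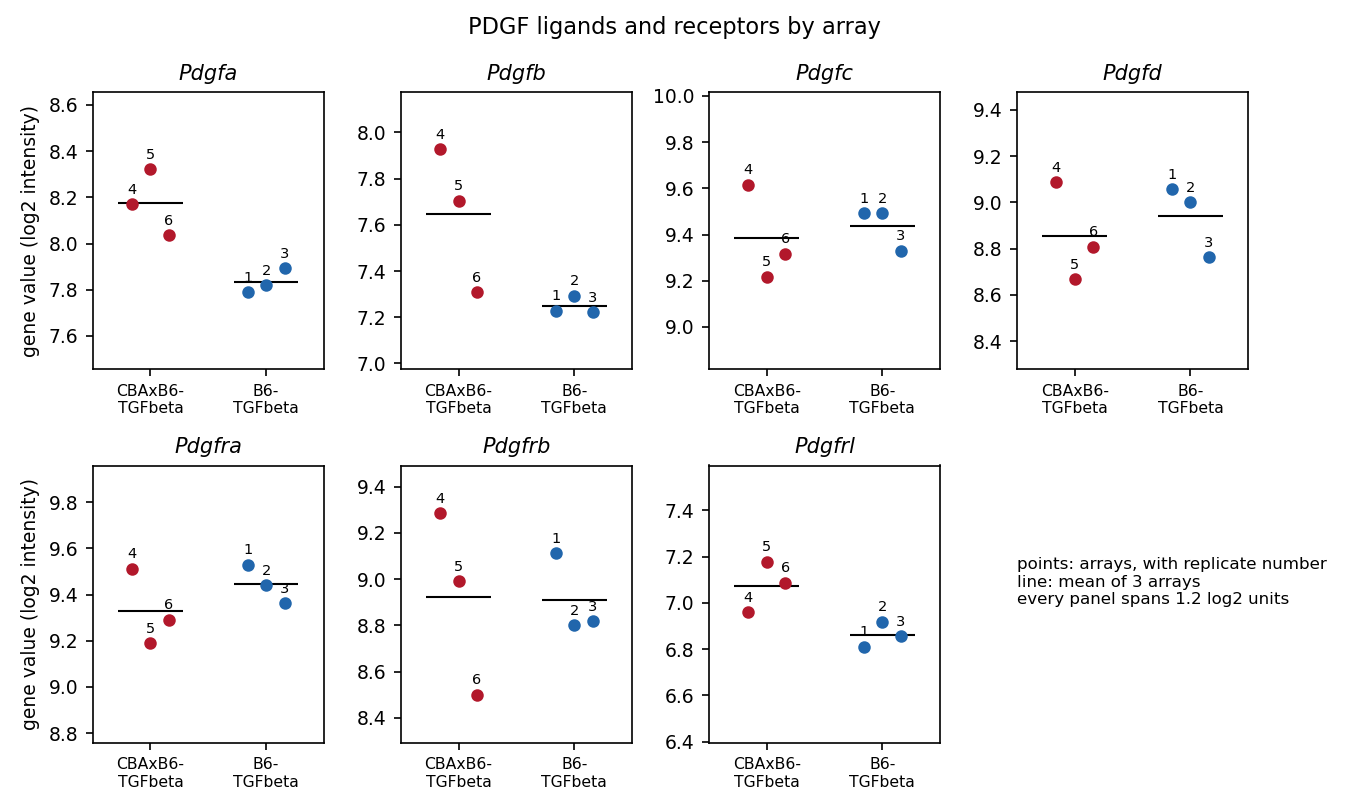
Log2 intensity (vertical axis) of each of the 7 PDGF family genes by group, CBAxB6-TGFbeta left of B6-TGFbeta. Each point is 1 array and each line the mean of 3 arrays; Pdgfa, Pdgfb and Pdgfrl show no overlap between the groups, and Pdgfrb spans the widest range, 8.50 to 9.28, within CBAxB6-TGFbeta.

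Pdgfa, which encodes the A chain that binds PDGFR-alpha, had log2 intensities of 8.17, 8.32 and 8.04 in CBAxB6-TGFbeta kidneys, against 7.79, 7.82 and 7.89 in B6-TGFbeta kidneys. The 3 CBAxB6-TGFbeta values all lay above the highest B6-TGFbeta value. The means were 8.18 ± 0.14 and 7.83 ± 0.05 (SD, n = 3 each), a difference of 0.34 (SE 0.10, 95% confidence interval 0.11 to 0.58), or 1.27-fold. The adjusted p of this difference in limma was 0.0867, the smallest of the family, and 10.9% of all genes had a smaller p. Without B6-TGFbeta replicate 2 the difference was 0.33 with an adjusted p of 0.202.

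The 10 Pdgfa probe sets did not all move alike. The difference was positive in 8 of them. In 5 the groups did not overlap, all 5 with CBAxB6-TGFbeta on top, against 9.91% of all probe sets. The brightest, probe set 10535045, read 12.52, 12.79 and 12.59 in CBAxB6-TGFbeta and 11.95, 12.11 and 11.91 in B6-TGFbeta, a difference of 0.64 with an adjusted p of 0.165 over all probe sets. Its neighbour 10535046 read 9.66, 9.94 and 9.55 in CBAxB6-TGFbeta and 9.19, 9.17 and 8.85 in B6-TGFbeta, a difference of 0.65. In both, the lowest CBAxB6-TGFbeta array lay above the highest B6-TGFbeta array. At the other end, probe set 10535052 read 6.22, 5.30 and 4.61 in CBAxB6-TGFbeta and 5.52, 5.79 and 5.87 in B6-TGFbeta, a difference of -0.34 in which the CBAxB6-TGFbeta arrays themselves spread over more than a log2 unit. Probe set 10526881 carries the Pdgfa symbol but an ID outside the run of the other 9, and its difference was 0.01. The gene passed where only bright probe sets were used, with an adjusted p of 0.0493 on the brightest probe set alone (difference 0.64) and of 0.0474 without the dimmer 50% of its probe sets (0.51), and with array weights, with 0.0249 (0.41). Over all 23 alternatives tried the difference ran from 0.23 to 0.64 and the adjusted p from 0.0249 to 0.638.

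The promoter of Pdgfa is shown because the gene has been described as a target of Sp1 and of early growth response factors, of which EGR2 is named in the title of the study. RefSeq (GRCm38.p6) gives 2 start sites, both on the minus strand, with windows of 250 bases before to 50 bases after each start at chr5:138994895-138995194 and chr5:138994232-138994531. Capitals mark the GC box GGGCGG, the core of Sp1 sites, or its reverse complement.
Pdgfa window 1: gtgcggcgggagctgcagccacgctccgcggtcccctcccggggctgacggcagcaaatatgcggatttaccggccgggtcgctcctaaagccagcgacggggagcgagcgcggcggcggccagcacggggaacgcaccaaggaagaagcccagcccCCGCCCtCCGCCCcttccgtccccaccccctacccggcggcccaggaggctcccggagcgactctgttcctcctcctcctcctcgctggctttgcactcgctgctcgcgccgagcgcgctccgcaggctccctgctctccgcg
Pdgfa window 2: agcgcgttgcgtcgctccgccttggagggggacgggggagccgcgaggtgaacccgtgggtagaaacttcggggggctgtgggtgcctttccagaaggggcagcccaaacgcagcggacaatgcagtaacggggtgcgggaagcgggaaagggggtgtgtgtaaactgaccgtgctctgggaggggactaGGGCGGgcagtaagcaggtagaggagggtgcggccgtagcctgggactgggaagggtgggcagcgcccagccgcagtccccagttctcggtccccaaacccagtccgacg
The first window holds 2 GC boxes and has a GC content of 73.3%, and the second holds 1 and has 67% GC. A GC box was found in 35.7% of the 32851 windows of the same length given for mouse genes. Neither window holds a match to GCGNGGGCG, the letters searched for EGR factors, on either strand, a match that 5.55% of all windows hold. Windows were also given for Pdgfc, Pdgfd and Pdgfra, and the 5 windows of these 4 genes held no match to the EGR letters or to TGANTCA, the letters of AP-1, which 7.81% of all windows hold. All motifs were searched on both strands, and the EGR letters and the GC box can share bases. The windows are reference sequence, and the sequences of the 2 backgrounds were not compared. The Pdgfd window, chr9:6168236-6168535 on the plus strand, holds 1 TATAAA, found in 13.6% of all windows.

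Pdgfb, which encodes the B chain that binds both receptors and is made by endothelium, platelets and macrophages, had log2 intensities of 7.93, 7.70 and 7.31 in CBAxB6-TGFbeta kidneys, against 7.23, 7.29 and 7.22 in B6-TGFbeta kidneys. The B6-TGFbeta arrays lay within 0.07 of each other, whereas the CBAxB6-TGFbeta arrays spread over 0.62, and the lowest of them was just above the highest B6-TGFbeta array. The means were 7.65 ± 0.31 and 7.25 ± 0.04 (SD, n = 3 each), a difference of 0.40 (SE 0.15, 95% confidence interval 0.06 to 0.73), or 1.32-fold, with an adjusted p of 0.153 in limma. Single CBAxB6-TGFbeta arrays moved this value. Without replicate 4 the difference was 0.26 with an adjusted p of 0.299, and 0.25 with 0.397 where the gene summary was repeated on the other 5 arrays. Without replicate 6 the difference was 0.57 with an adjusted p of 0.0183, and 0.59 with 0.0505 where the summary was repeated. Array weights gave 0.43 with 0.0461. The difference was positive under all 23 alternatives, at 0.25 to 0.59, with adjusted p from 0.0183 to 0.605, and was 0.42 with an adjusted p of 0.243 without B6-TGFbeta replicate 2.

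Of the 8 Pdgfb probe sets 6 had a positive difference. In 2 of these the groups did not overlap, against 9.91% of all probe sets with CBAxB6-TGFbeta higher. Probe set 10430662 read 8.26, 7.91 and 7.86 in CBAxB6-TGFbeta and 7.48, 7.35 and 7.59 in B6-TGFbeta, a difference of 0.54. Probe set 10430661 had the largest positive difference, 0.87, and there CBAxB6-TGFbeta replicate 4 alone, at 7.28, lay far above the other arrays, which read 6.20 and 5.80 in CBAxB6-TGFbeta and 5.48 to 5.70 in B6-TGFbeta. The most negative, 10430668, at -0.52, rested on a reading of 3.57 in CBAxB6-TGFbeta replicate 6, with 5.23 and 6.29 in the other CBAxB6-TGFbeta arrays and 5.37 to 5.82 in B6-TGFbeta. No Pdgfa or Pdgfb probe set passed over all probe sets, a test that 0.535% of all probe sets passed.

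Pdgfc, whose latent product signals mainly through PDGFR-alpha after release by proteases such as tissue plasminogen activator, had log2 intensities of 9.62, 9.22 and 9.32 in CBAxB6-TGFbeta kidneys, against 9.49, 9.49 and 9.33 in B6-TGFbeta kidneys. One CBAxB6-TGFbeta array lay above all B6-TGFbeta arrays and the other 2 lay below them, so the groups overlapped. The difference was -0.05 (SE 0.12, adjusted p 0.858 in limma), with a 95% confidence interval of -0.33 to 0.22. Its sign turned in some settings. The difference was 0.05 on the brightest probe set, 0.05 when B6-TGFbeta was represented by replicate 3 alone, and 0.03 without CBAxB6-TGFbeta replicate 5. Of 9 probe sets 3 had a positive difference and none kept the groups apart. Without B6-TGFbeta replicate 2 the difference was -0.03.

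Pdgfd, whose latent product signals mainly through PDGFR-beta, had log2 intensities of 9.09, 8.67 and 8.81 in CBAxB6-TGFbeta kidneys, against 9.06, 8.9997 and 8.76 in B6-TGFbeta kidneys. These ranges lay on top of each other. The difference was -0.09 (SE 0.13, adjusted p 0.781 in limma), with a 95% confidence interval of -0.39 to 0.22. The direction turned without CBAxB6-TGFbeta replicate 5, at 0.01, and when B6-TGFbeta was represented by replicate 3 alone, at 0.09, and it was -0.06 without B6-TGFbeta replicate 2. The 10 probe sets of Pdgfd differed among themselves. In order of probe set ID, the first 3 had differences of -0.73, -0.59 and -0.36, the seventh, 10583028, had 0.42, and the ninth had 0.31. Probe set 10583022, the first, read 9.12, 8.30 and 7.44 in CBAxB6-TGFbeta and 9.18, 8.91 and 8.97 in B6-TGFbeta, with replicate 6 lowest. Probe set 10583028 read 7.33, 7.78 and 7.48 in CBAxB6-TGFbeta and 7.31, 7.25 and 6.79 in B6-TGFbeta, without overlap but with 7.33 next to 7.31. The sources used here do not say whether ID order follows the gene.

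Pdgfra, which encodes the receptor that binds the A, B and C chains and marks interstitial fibroblasts, had log2 intensities of 9.51, 9.19 and 9.29 in CBAxB6-TGFbeta kidneys, against 9.53, 9.44 and 9.36 in B6-TGFbeta kidneys. Although 2 CBAxB6-TGFbeta arrays lay below all B6-TGFbeta arrays, replicate 4 lay among them. The difference was -0.11 (SE 0.11, adjusted p 0.628 in limma), with a 95% confidence interval of -0.37 to 0.14. Without B6-TGFbeta replicate 2 it was -0.12, with replicate 3 standing alone for B6-TGFbeta -0.03, and on the brightest probe set it turned to 0.06. Of 26 probe sets, the most of any gene of the family, 10 had a positive difference. In 2 the groups did not overlap, both lower in CBAxB6-TGFbeta, against 10.5% of all probe sets. Probe set 10522529, among the brightest, read 11.84, 12.02 and 11.99 in CBAxB6-TGFbeta and 12.27, 12.19 and 12.12 in B6-TGFbeta, a difference of -0.24. Probe set 10522517 read 7.71, 7.56 and 7.28 in CBAxB6-TGFbeta and 8.48, 8.26 and 8.17 in B6-TGFbeta, a difference of -0.78 with an adjusted p of 0.142 over all probe sets. Set against the median of the other Pdgfra probe sets on the same array, this probe set had a difference of -0.72, with an adjusted p of 0.465 in limma. That value is the part of the -0.78 left once the shift of the other probe sets was taken out. Neither adjusted p passed, and the contrast with the other probe sets recovered none of the shifts planted in simulated data. A splice difference, a sequence difference between the strains under the probes and measurement noise cannot be told apart here.

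Pdgfrb, which encodes the receptor that binds the B and D chains and marks mesangial cells and pericytes, had log2 intensities of 9.28, 8.99 and 8.50 in CBAxB6-TGFbeta kidneys, against 9.11, 8.80 and 8.82 in B6-TGFbeta kidneys. The CBAxB6-TGFbeta arrays held both the highest and the lowest value of the 6. The means were 8.92 ± 0.40 and 8.91 ± 0.18 (SD, n = 3 each), a difference of 0.01 (SE 0.19, adjusted p 0.980 in limma) with a 95% confidence interval of -0.41 to 0.43, the widest of the family. With single arrays left out and the gene summary repeated it ran from -0.20 without CBAxB6-TGFbeta replicate 4 to 0.24 without replicate 6. Without B6-TGFbeta replicate 2 it was -0.04 from the gene values as they stood and 0.0066 with the summary repeated, and with replicate 3 standing alone for B6-TGFbeta it was 0.11. The 24 probe sets did not separate the groups in any case, and 15 of them had a positive difference, from -0.40 to 0.20 over all 24.

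Pdgfrl, whose product resembles the extracellular part of a PDGF receptor and lacks a kinase domain, had log2 intensities of 6.96, 7.18 and 7.09 in CBAxB6-TGFbeta kidneys, against 6.81, 6.92 and 6.85 in B6-TGFbeta kidneys. The lowest CBAxB6-TGFbeta array, replicate 4, lay just above the highest B6-TGFbeta array. The difference was 0.21 (SE 0.10, adjusted p 0.253 in limma), with a 95% confidence interval of -0.01 to 0.44, and 0.24 without B6-TGFbeta replicate 2. Its sign was positive under all 23 alternatives, at 0.10 to 0.29, and none brought it past the threshold. Of 7 probe sets 6 had a positive difference. The groups were kept apart in 4, all with CBAxB6-TGFbeta higher, against 9.91% of all probe sets. Probe set 10571471 read 6.95, 7.03 and 6.94 in CBAxB6-TGFbeta and 6.66, 6.56 and 6.41 in B6-TGFbeta, a difference of 0.43. Probe set 10571469 ran the other way at -0.39, with 6.47, 6.41 and 7.05 in CBAxB6-TGFbeta and 7.03, 6.95 and 7.13 in B6-TGFbeta.

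Over the 94 probe sets of the family 51 had a positive difference and none passed, while 7 had an unadjusted p under 0.05, against 14.1% of all probe sets. The groups did not overlap in 12 probe sets with CBAxB6-TGFbeta higher and in 2 with it lower, where 9.91% and 10.5% of all probe sets did, or 20.4% in either direction. The 12 belonged to Pdgfa (5), Pdgfrl (4), Pdgfb (2) and Pdgfd (1). When each probe set was set against the median of the other probe sets of its gene, limma called none of 207383 probe sets, although 8.36% of them and 5 of the 94 had an unadjusted p under 0.05. This contrast with the median recovered none of the shifts planted in simulated data, so its lack of calls decides nothing. The mean of the other probe sets in place of the median gave 1 call. A variance trend on intensity, added after the data were seen, gave 54, none of them in the family. Groups did not overlap in this contrast in 12 of the 94 probe sets, against 14.4% of all tested.

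**Figure D2:**
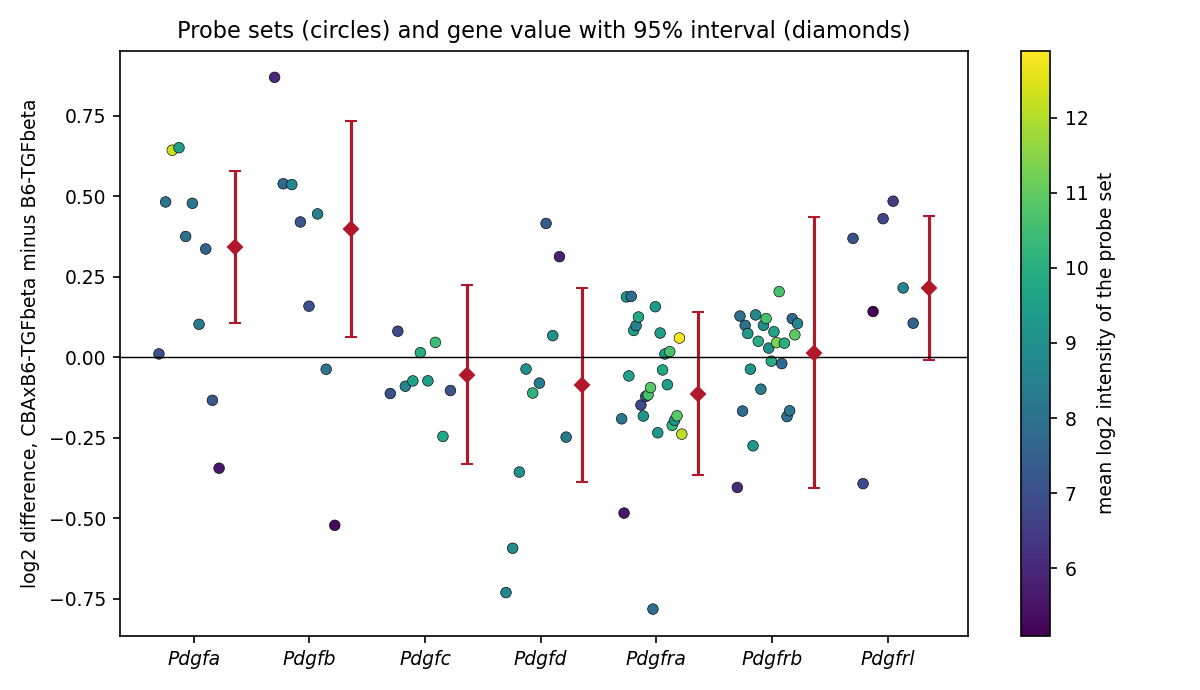
Log2 difference (CBAxB6-TGFbeta minus B6-TGFbeta) of each of the 94 probe sets of the family, grouped by gene. Each point is 1 probe set; its colour gives its mean log2 intensity, and the red diamond and bar give the difference of the gene with its 95% confidence interval. The interval excludes zero in Pdgfa and Pdgfb, and the probe sets of Pdgfd and Pdgfra reach down to -0.73 and -0.78.

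Selected pairs of the family were compared within arrays, by the exact permutation test over arrays, two-sided, whose smallest possible p with 3 against 3 is 0.1, so that no pair could pass. The difference between the groups of Pdgfra minus Pdgfrb was -0.13 (exact p 0.6). It was -0.06 for Pdgfa minus Pdgfb (exact p 0.9) and 0.03 for Pdgfc minus Pdgfd (exact p 0.5). All 3 adjusted p were 0.9. The within-array distance of Pdgfc and Pdgfd was 0.53 ± 0.02 in CBAxB6-TGFbeta and 0.50 ± 0.07 in B6-TGFbeta (SD, n = 3 each). For Pdgfa and Pdgfb these SDs were 0.26 and 0.08, and for Pdgfra and Pdgfrb 0.33 and 0.11. Whether the SDs differ between pairs was not tested. The genes whose 6 values, each minus the mean of its gene, lay nearest to those of Pdgfa among 16912 genes with at least 3 probe sets were Sec61b (root mean square distance 0.025), 2410042D21Rik (0.031) and Mapk7 (0.034). None of the 3 passed, with differences of 0.31, 0.33 and 0.31.

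Outside the family, 86 genes were listed around the PDGF signal, of which 81 were measured. Of these 8 were higher in CBAxB6-TGFbeta kidneys, 5 were lower and 68 did not pass, so that 16% passed where 7.65% of all genes did. This count depended on single arrays, as did that of all genes. Without B6-TGFbeta replicate 1, 2 or 3 the 13 became 3, 8 or 6. The 1562 passing among all 20416 genes became 494, 979 or 711. Without CBAxB6-TGFbeta replicate 4, 5 or 6 the 13 became 11, 5 or 16, and the 1562 became 1335, 866 or 1550. Where the gene summary was repeated without the array, 0 to 6 passed, against 57 to 554 of all genes. The lists and the counts follow, from the proteins that release or bind the ligands to the genes that receptors switch on.

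Among 9 measured genes for activation, binding and co-receptors none passed, and the median difference was 0.07. Plat, which encodes tissue plasminogen activator, the protease that releases PDGF-C, read 9.58, 9.12 and 8.82 in CBAxB6-TGFbeta and 8.72, 8.65 and 8.65 in B6-TGFbeta, a difference of 0.50 with an adjusted p of 0.121. Thbs1, which encodes the matricellular protein thrombospondin-1, read 11.01, 10.36 and 9.75 in CBAxB6-TGFbeta and 9.77, 9.65 and 9.50 in B6-TGFbeta, a difference of 0.73 with an adjusted p of 0.134. In both genes, and in Pdgfb, CBAxB6-TGFbeta replicate 4 was the highest array and replicate 6 the lowest of its group. The mean levels of the family and of every list around the signal had the same order within that group. Sparc, whose product binds PDGF-B, read 12.95 to 13.00 in CBAxB6-TGFbeta and 12.96 to 13.00 in B6-TGFbeta.

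Of 28 measured receptor adaptors and effectors 2 rose, 1 fell and 25 did not pass, with a median difference of -0.04. Nras, a Ras GTPase, rose by 0.46 (SE 0.10, adjusted p 0.0281) and Stat3, a transcription factor phosphorylated downstream of cytokine and growth factor receptors, by 0.64 (SE 0.16, adjusted p 0.0395). Crkl, an SH2 and SH3 domain adaptor, fell by 0.38 on the log2 scale (SE 0.09, adjusted p 0.0372). These are limma values, and the 3 calls held in 8, 10 and 5 of 23 alternatives. Each call was lost without CBAxB6-TGFbeta replicate 4 or 5 and without any B6-TGFbeta array, and that of Crkl also without replicate 6. Of 13 measured brakes on the receptors, Ptpn2 alone passed. It encodes a tyrosine phosphatase and read 8.24, 8.30 and 8.50 in CBAxB6-TGFbeta and 7.69, 7.95 and 7.76 in B6-TGFbeta, a difference of 0.54 (adjusted p 0.0219) that held in 11 of 23 alternatives and was lost without CBAxB6-TGFbeta replicate 5 and without B6-TGFbeta replicate 1 or 3.

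The 16 genes known to be induced early by PDGF or serum had the highest median of these lists, 0.40, with 14 positive differences, 3 passing as higher and none as lower. In 7 of them every CBAxB6-TGFbeta array lay above every B6-TGFbeta array, as in 13.5% of all genes. Egr2, a zinc finger transcription factor and one of the genes in the title, read 10.72, 9.86 and 9.52 in CBAxB6-TGFbeta and 7.57, 7.78 and 7.71 in B6-TGFbeta, a difference of 2.35 (SE 0.25, adjusted p 0.00108). Ccl2, the chemokine that draws monocytes, read 9.44, 8.32 and 8.40 in CBAxB6-TGFbeta and 6.03, 6.43 and 6.19 in B6-TGFbeta, a difference of 2.51 (SE 0.27, adjusted p 0.001). Its brightest probe set alone gave 0.28. Has2, which encodes a hyaluronan synthase, rose by 0.51 (adjusted p 0.0255), a call lost without CBAxB6-TGFbeta replicate 5 and without any B6-TGFbeta array. The calls on Egr2 and Ccl2 held in 16 of 23 alternatives each. The other members of the list did not pass. The title names Egr2 and may draw on these arrays, so its value is not independent evidence.

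Of 15 measured relatives of the ligands and receptors 2 rose, 4 fell and 9 did not pass, with a median difference of -0.16. Csf1, which encodes the ligand of the macrophage receptor CSF1R, read 7.73, 7.58 and 6.83 in CBAxB6-TGFbeta and 6.27, 6.32 and 6.41 in B6-TGFbeta, a difference of 1.05 (adjusted p 0.0168). Flt3, a type III receptor kinase of blood progenitors and dendritic cells, rose by 0.47 (adjusted p 0.0212), a call not followed through the 23 alternatives. Vegfa, the main angiogenic ligand of the superfamily, read 9.35, 9.46 and 9.48 in CBAxB6-TGFbeta and 10.04, 10.12 and 9.96 in B6-TGFbeta, a difference of -0.61 (adjusted p 0.00674). Its receptors Kdr and Flt1 fell by 0.57 and 0.45 on the log2 scale (adjusted p 0.0174 and 0.0377), and Kit, the stem cell factor receptor, by 0.56 (adjusted p 0.0133). The Vegfa call held in 16 of 23 alternatives and with each array left out from the gene values, whereas those of Csf1, Kdr, Flt1 and Kit were lost without CBAxB6-TGFbeta replicate 5, without B6-TGFbeta replicate 1 and in 11, 12, 15 and 12 alternatives in all. Kdr and Flt1 also stand in the list of endothelial markers.

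**Figure D3:**
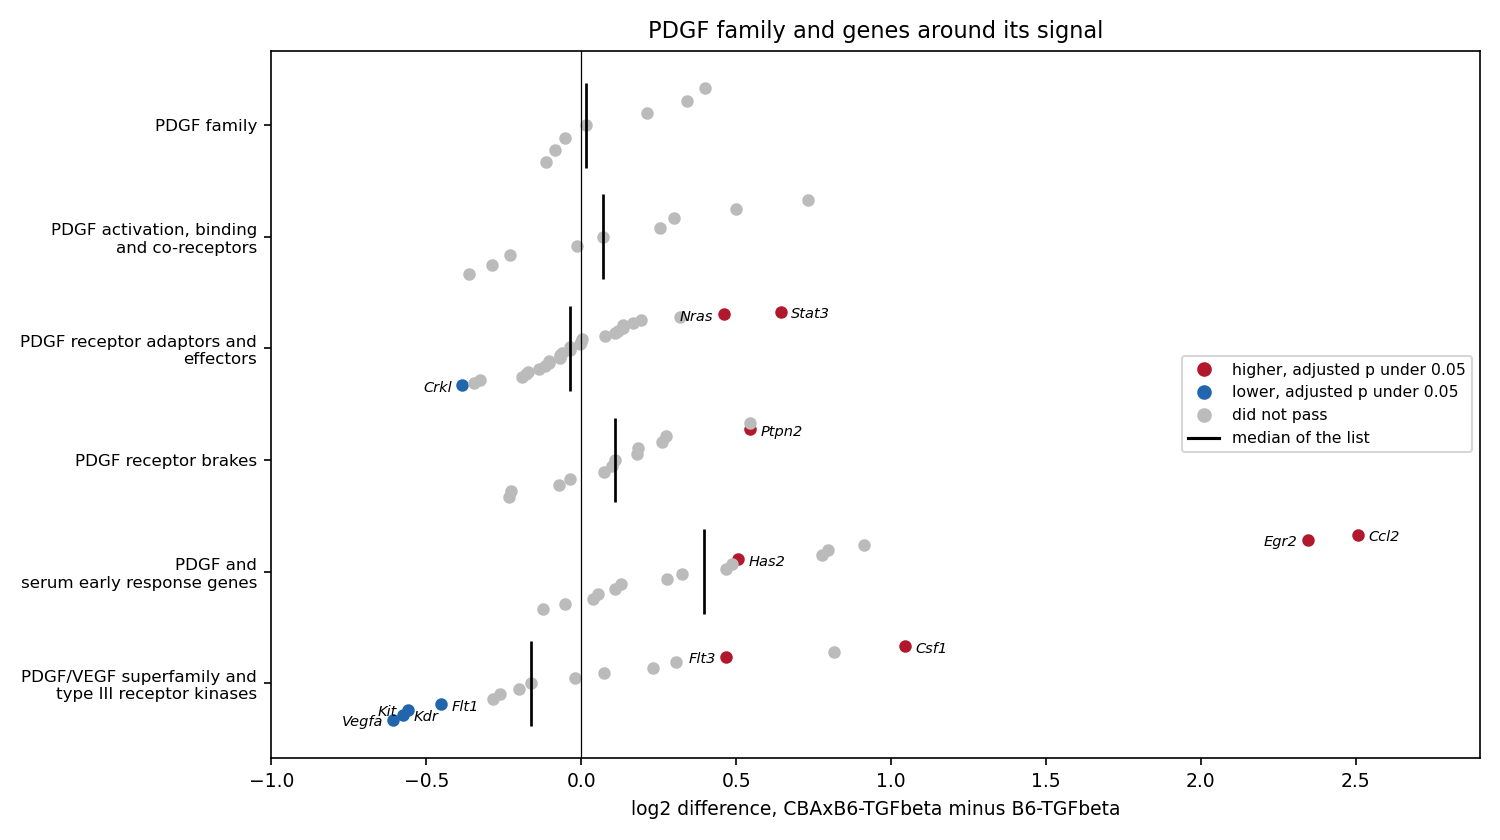
Log2 difference (horizontal axis, CBAxB6-TGFbeta minus B6-TGFbeta) of the 7 PDGF family genes and the 81 measured genes listed around them, one row of points per list. Coloured points passed the test and are named, 8 higher and 5 lower, and the vertical bar is the median of each list, 0.01 for the family and 0.40 for the early response genes.

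Markers of the cells that make or receive PDGF moved between the groups, and their part in the values above was not tested. In whole kidney RNA, fewer cells of a type and less RNA per cell cannot be told apart. Of 13 measured pericyte, mesangial and smooth muscle markers, which mark the cells with PDGFR-beta, 1 rose and 1 fell, with a median of 0.16: Cnn1, a smooth muscle calponin, rose by 1.04 (adjusted p 0.0164) and Itga8, a mesangial integrin, fell by 0.41 on the log2 scale (adjusted p 0.0477). Their mean level was 8.44 to 8.82 in the CBAxB6-TGFbeta arrays and 8.39 to 8.49 in the B6-TGFbeta arrays. The highest array was CBAxB6-TGFbeta replicate 4, as in Pdgfrb and in the fibroblast, macrophage, platelet and injured tubule lists. The lowest was B6-TGFbeta replicate 1, at 8.39, which for Pdgfrb was the highest B6-TGFbeta array, at 9.11. Rgs5, a pericyte gene, read 10.76 to 10.84 in CBAxB6-TGFbeta and 10.69 to 10.95 in B6-TGFbeta. The Itga8 call was lost with any single array left out, and on its brightest probe set the difference was 0.14.

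Of 12 fibroblast and myofibroblast markers, which mark the cells with PDGFR-alpha, 3 passed as higher and none as lower. The median was 0.40, and mean levels were 8.85 to 8.91 in CBAxB6-TGFbeta against 8.21 to 8.61 in B6-TGFbeta. Differences were positive in 10 markers and negative in Dpt (-0.70, adjusted p 0.125 in limma) and Fap (-0.19, adjusted p 0.678 in limma). Thy1 rose by 1.74 (adjusted p 0.000961), Col3a1, which encodes fibrillar collagen, by 0.60 (adjusted p 0.0148) and the proteoglycan gene Lum by 1.54 (adjusted p 0.0361). Pdgfra itself had a difference of -0.11 in the same arrays. Of the sources of PDGF-B, 8 of 12 macrophage markers rose and none fell, with a median of 0.92 and mean levels of 8.08 to 8.49 in CBAxB6-TGFbeta against 7.13 to 7.35 in B6-TGFbeta. Msr1, a scavenger receptor, rose by 2.19 (adjusted p 0.000139). Of 12 endothelial markers 4 fell and none rose, with a median of -0.37 and mean levels of 8.73 to 8.84 in CBAxB6-TGFbeta against 9.16 to 9.22 in B6-TGFbeta. In 11 of the 12 every CBAxB6-TGFbeta array lay below every B6-TGFbeta array, as in 13.4% of all genes. Cdh5, the cadherin of endothelial junctions, fell by 0.37 on the log2 scale (adjusted p 0.0357). Of 6 measured platelet markers only Ppbp passed, with a rise of 1.40 (adjusted p 0.0215). Differences were positive in 4 of the 6, with a median of 0.05, and Gp9 and Itga2b had 0.00 and 0.09. The mean level of the list, Ppbp included, was 6.37 to 6.57 in CBAxB6-TGFbeta and 6.08 to 6.21 in B6-TGFbeta.

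Markers of tubules shifted more. Of 10 proximal tubule markers 9 fell, with a median of -1.03 and mean levels of 9.53 to 9.99 in CBAxB6-TGFbeta against 11.01 to 11.18 in B6-TGFbeta, with differences of -1.88 in Slc34a1 and -2.57 in Miox, an inositol oxygenase. Of 9 markers of injured tubules 7 rose, with a median of 1.78 and mean levels of 9.38 to 9.97 in CBAxB6-TGFbeta against 7.97 to 8.10 in B6-TGFbeta. Havcr1, which encodes kidney injury molecule-1, rose by 2.70 (adjusted p 0.000107) and Krt20 by 3.18 (adjusted p 0.000114). Within CBAxB6-TGFbeta this list was highest in replicate 4 and lowest in replicate 6, the order of Pdgfb, Plat and Thbs1. That order was not particular to it. The mean levels of the PDGF family, of every list around the signal and of the pericyte, fibroblast and podocyte lists had it too. Timp1, the other gene in the title, which encodes an inhibitor of matrix metalloproteinases, rose by 2.88 (adjusted p 0.000114). Of 4 measured podocyte markers 2 fell, Podxl (difference -0.64) and Nphs1 (-0.44), and none of the 8 perirenal fat and 8 adrenal markers passed. The calls on Cnn1, Col3a1, Lum, Cdh5, Ppbp, Podxl and Nphs1 held in 13, 12, 7, 8, 11, 12 and 9 of 23 alternatives, and each was lost without at least 1 of the arrays.

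**Figure D4:**
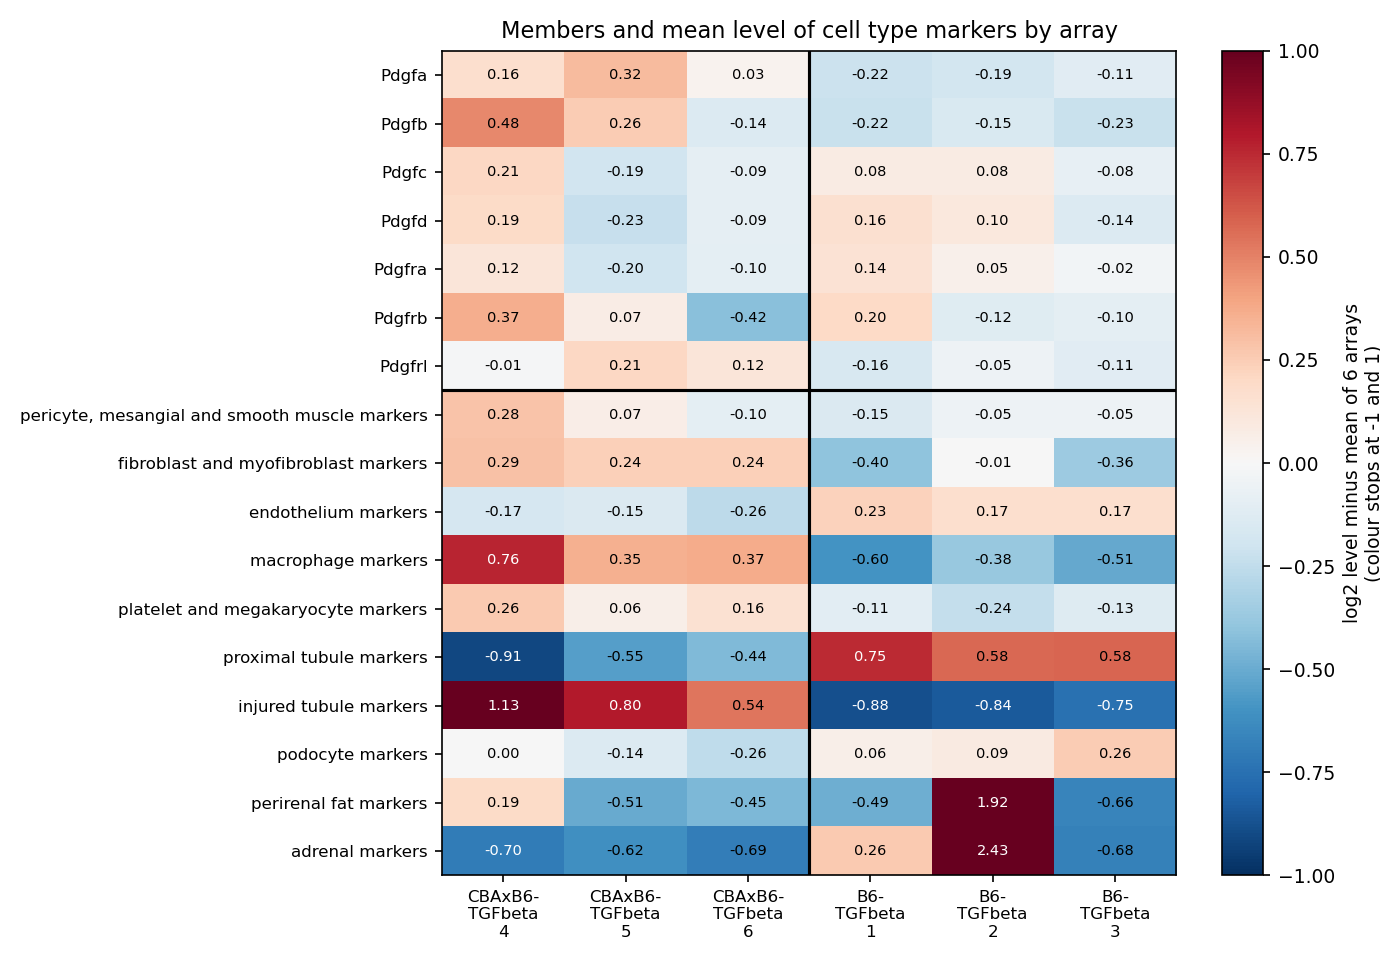
Log2 level of each PDGF family gene, and mean log2 level of each cell type marker list, on each of the 6 arrays after subtraction of its own mean over the 6 arrays. Red is above and blue below that mean, and colours stop at -1 and 1. The marker lists for macrophages, injured tubules, fibroblasts, platelets, endothelium, proximal tubules and podocytes separate the groups. B6-TGFbeta replicate 2 stands apart in fat and adrenal markers.

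**Figure D5:**
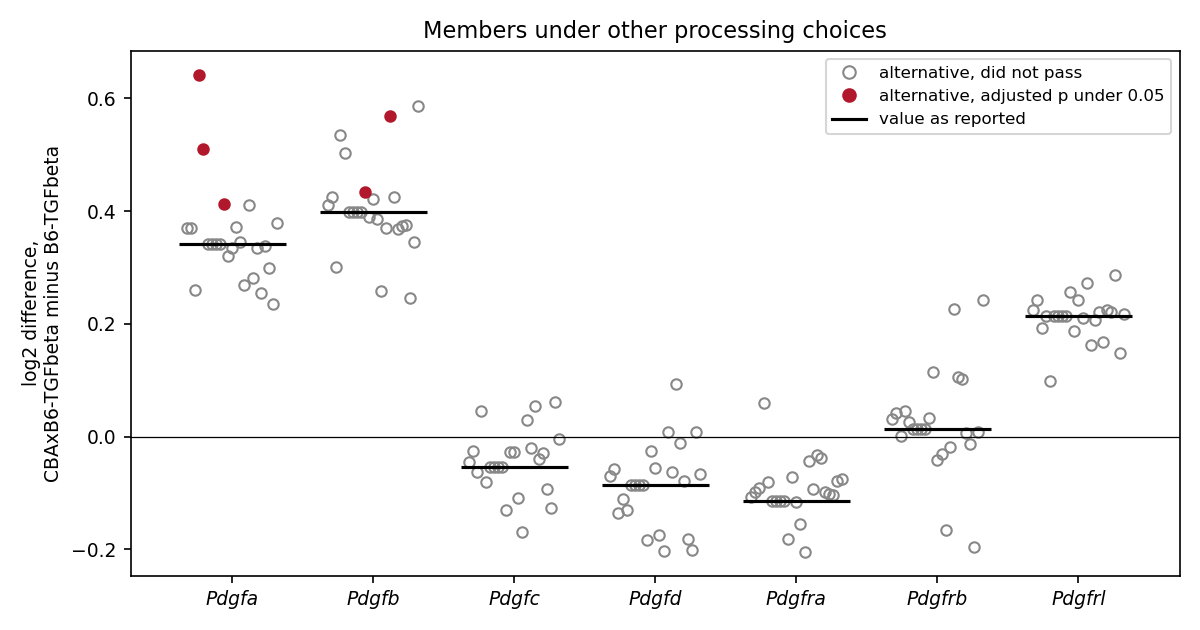
Log2 difference (CBAxB6-TGFbeta minus B6-TGFbeta) of each PDGF family gene under the main setting and under 23 alternative settings. Red points passed the threshold; Pdgfa, Pdgfb and Pdgfrl were above zero under all 23 alternatives, and the other genes crossed zero under at least 1.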

How the data were processed

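RNA of 6 mouse kidney samples was measured on 6 arrays. The values deposited by the authors are log2 intensities per exon probe set, made with RMA and Partek per the submitters' processing notes, and the sources used here give no settings or genome build. The table holds no detection call, and the number of arrays limits precision. The probe annotation gave 1 symbol to 212097 probe sets, several to 4475 and none to 25004; Tukey's median polish over the first gave 20416 gene values. Differences were tested with limma 3.58.1 (R 4.3.3), 1 group term, Benjamini-Hochberg over all genes or probe sets, threshold 0.05, after a test on simulated data. The contrast of a probe set with its gene recovered none of the simulated shifts, so its lack of calls says nothing about splicing. The 7 members and the lists were chosen with earlier results of these data known, so they are no independent evidence. Named genes were all members, up to 4 passing genes of each list by smallest p or up to 2 where none passed, the genes of the title, Ucp1, Chgb and the 3 profiles nearest to the member with the smallest p. Flt3, Gp9, Itga2b, Sparc, Rgs5, Dpt and Fap were chosen after their values were seen.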

Additional observations from a re-analysis of the deposited data

How the results depend on the processing

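No paired analysis was possible because the groups share no replicate numbers. Genes passing numbered 1562, 617 on the brightest probe set, 63 without moderation, 45 when B6-TGFbeta was represented by replicate 3 alone and 57 to 1550 with single arrays left out. PDGF family genes passing numbered 0, 1 on the brightest probe set, 1 without the dimmer 50% of probe sets, 2 with array weights and 0 to 1 with single arrays left out; the 13 genes around the signal became 3, 0 and 0 on the brightest probe set, without moderation and with replicate 3 alone, and 0 to 16 with single arrays left out. Pdgfa passed at 0.64, 0.51 and 0.41 (brightest, without dimmer probe sets, array weights), and Pdgfb at 0.43 (array weights). Leaving out single arrays gave 0.23 to 0.41 for Pdgfa, 0.25 to 0.59 for Pdgfb, -0.17 to 0.061 for Pdgfc, -0.20 to 0.0086 for Pdgfd, -0.20 to -0.04 for Pdgfra, -0.20 to 0.24 for Pdgfrb and 0.15 to 0.29 for Pdgfrl. Other reversals were Pdgfc at 0.046 (brightest) and 0.054 (replicate 3 alone), Pdgfd at 0.092 (replicate 3 alone), Pdgfra at 0.059 (brightest), Itga8 at 0.14 and Sec61b at -0.11 (brightest), and the fat and adrenal genes Cidea (-1.17 to 0.18) and Ucp1 (-2.16 to 0.77) with single arrays left out, positive without B6-TGFbeta replicate 2, and Cidea at 0.037, Ucp1 at 0.89 and Chgb at 0.053 with replicate 3 alone. Probe sets passing numbered 1292, 4552 with trended moderation, 2 without moderation, 1964 with array weights, 0 with replicate 3 alone and 0 to 223 with single arrays left out; within the family 1 passed with trended moderation, Pdgfa probe set 10535045. Probe sets deviating from their gene numbered 0, 1 against the mean of the others and 54 with a variance trend. On the brightest probe set the pairs turned to 0.014 (Pdgfra minus Pdgfrb) and 0.11 (Pdgfa minus Pdgfb). The alternatives that repeated the gene summary without an array, and the variance trend for deviations, were chosen after seeing the data. The cause of these changes was not tested. Of 35 passing genes outside the family that the naming rule chose, 1, Vcam1, passed under every alternative. Of the 46 genes so chosen, 41 kept their direction under all.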
